A study of Mus musculus with 2 samples.

Results

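The miR-30 family in mouse comprises 6 microRNA genes at 3 loci, and these 6 genes, out of 2202 microRNA genes in the annotation, were examined here by symbol. They are Mir30a and Mir30c-2 on chromosome 1, Mir30e and Mir30c-1 on chromosome 4, and Mir30d and Mir30b on chromosome 15. The counts come from microRNA sequencing of total RNA, restricted to molecules below 30 bases, from the left cerebral cortex of male adult mice of strain 5xFAD/CAST, 8 to 10 months old. 5xFAD is a transgenic line that deposits amyloid, and CAST names a wild-derived inbred strain. It is not stated in the labels whether the mice sampled carried the transgenes. There are 2 libraries, called replicates 1 and 2, in 1 group without a control group, so the results are levels and their spread. Both libraries carry the same donor identifier, and their spread may be technical or that between animals.

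A microRNA is cut from the stem of a hairpin precursor, loaded into an Argonaute protein and guided to messenger RNAs mainly by its seed, the stretch from base 2 to base 8. Members of a family share the seed and can therefore repress overlapping sets of messages. The miR-30 family is widely made in adult tissues, among them brain, kidney and heart. Known targets include Bdnf, which encodes a neuronal growth factor, the autophagy gene Becn1 and the transcription factor gene Snai1.

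The mature sequences are shown because the seed unites the family, while the remaining bases decide whether a read can be assigned to a single gene. RefSeq sequences (GRCm38.p6) were matched for 4 of the 6 genes. The seed is in capitals, each sequence is written 5′ to 3′, and Mir30b and Mir30d had no entry in the table used.
miR-30a-5p: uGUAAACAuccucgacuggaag
miR-30e-5p: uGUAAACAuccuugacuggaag
miR-30c-5p: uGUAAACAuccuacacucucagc
miR-384-5p: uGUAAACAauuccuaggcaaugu
The mature forms of Mir30a and Mir30e differ by a single substitution, C13U, counted from the 5′ end with the base of Mir30a first. miR-30c-5p is identical to miR-30a-5p over the first 12 bases and differs from it at 5 of the 22 bases compared. Among 1738 mature entries, the seed occurred in 5, which belong to the 4 matched members and to Mir384, a gene on the X chromosome known for a role in synaptic plasticity.

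miR-30c-5p is encoded identically by Mir30c-1 and Mir30c-2. In the precursors below, the longest stretch that they share is in capitals.
Mir30c-1: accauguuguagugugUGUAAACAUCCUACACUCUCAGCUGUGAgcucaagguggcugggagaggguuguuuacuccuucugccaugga
Mir30c-2: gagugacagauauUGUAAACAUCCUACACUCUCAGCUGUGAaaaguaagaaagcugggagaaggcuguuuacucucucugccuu
The shared stretch is 28 bases long and begins at the first base of miR-30c-5p, so any read lying within it matches both genes. The arms on the 3′ side of the hairpin differ between them, and each was found in 1 hairpin of the table. They are shown with their bases 2 to 8 in capitals.
miR-30c-1-3p: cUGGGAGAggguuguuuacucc
miR-30c-2-3p: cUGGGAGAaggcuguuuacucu
Between Mir30a and Mir30e the longest shared stretch is 18 bases, and no window of 22 bases is common to their precursors. The rest of the genome was not searched for matches. The deposited tables give counts for each precursor and do not separate its arms.

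All 6 genes reached 10 reads per library, the minimum used to call a gene detected, which 417 of the 2202 genes met. Replicate 1 held 4929428 and replicate 2 held 4441328 sense reads assigned to microRNA genes, and levels are given as counts scaled to a total of 1000000 of these reads (CPM). A further 38.5% and 33.0% of all reads in replicates 1 and 2 mapped to several places and form a total outside the gene counts. Of 12 genes listed as neuronal, 10 were detected, with a summed level of 54945 and 65872 CPM, although some are known from other cells too. All of these genes but Mir132 and Mir137 have numbered sister genes, so reads that sisters share may lie outside this sum. The kidney list, a tissue rich in miR-30, summed to 23.7 and 31.7 CPM with 2 of 3 genes detected, and the liver gene Mir122 stood at 69.0 and 50.9 CPM. Of 5 muscle genes, Mir206 alone was detected, at 35.5 and 45.9 CPM, and 3 had no read. The muscle genes other than Mir206, and the kidney genes other than Mir192, also have numbered sister genes. Reads that those sisters share may lie outside these values too. The highest neuronal gene was Mir132, at 19682 and 44698 CPM, while the 11 other neuronal genes together stood at 35264 and 21175 CPM.

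The family was a moderate part of the cortical reads assigned to microRNA genes, and nearly all of its assigned reads came from a leading gene at each locus. It took 1.87% of the assigned reads in replicate 1 and 1.57% in replicate 2, or 1.72 ± 0.210% (mean ± SD, n = 2). Mir30d, Mir30a and Mir30e held 97.9% of the family's reads in replicate 1 and 96.8% in replicate 2. Mir30b, Mir30c-1 and Mir30c-2 shared the rest of the assigned reads. Reads that match both Mir30c-1 and Mir30c-2 may lie outside all these shares, and their number was not tested. The lowest of the leading genes was 29.5 times the highest of the others in replicate 1 and 13.0 times in replicate 2. The leading and the lower genes were told apart by these same levels, so the gap between them is a description only. All these values are from tissue, where fewer cells of a type and less RNA per cell cannot be told apart.

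**Figure D1:**
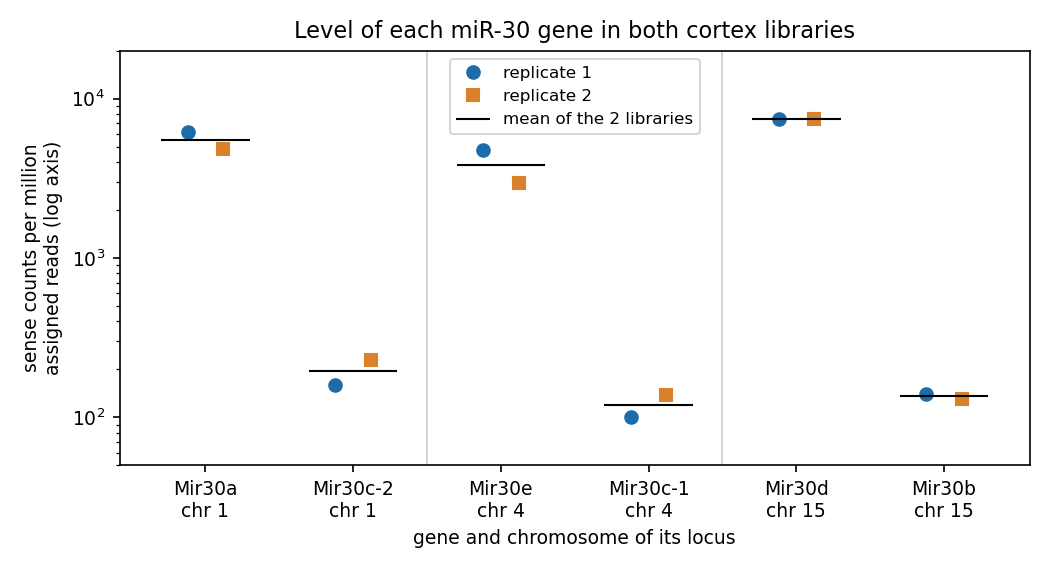
Sense CPM (log axis) of the 6 miR-30 genes, by locus, with a circle for replicate 1, a square for replicate 2 and a line for their mean. At each locus the first gene stands at 2978 to 7414 CPM and its partner at 100.01 to 229.7 CPM.

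Mir30d had the most assigned reads of the members, with 36548 reads in replicate 1 and 32909 in replicate 2. These correspond to 7414 and 7410 CPM, a mean of 7412 ± 3.20 CPM (SD, n = 2), and Mir30d ranked 26 among all microRNA genes by its mean. The libraries were closer at Mir30d than at any other member, with a coefficient of variation of 0.0432% against 5.17% to 32.2% at the others. Exact Poisson 95% intervals for counting error alone were wider than that gap, at 7338 to 7491 CPM and 7330 to 7490 CPM. Mir30a had 30266 and 21450 reads, or 6140 and 4830 CPM (mean 5485 ± 926 CPM), and ranked 37. It encodes the member studied most as a repressor of Bdnf and Becn1. Mir30e had 23341 and 13226 reads, or 4735 and 2978 CPM (mean 3856 ± 1242 CPM), and ranked 47. The order Mir30d, Mir30a, Mir30e held in both libraries, and the Poisson intervals of neighbours in this order did not overlap within either library. Mir30a exceeded Mir30e by 1405 and 1852 CPM in the 2 libraries.

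The other 3 genes lay close together, and Mir30b, whose symbol names no second copy, was among them. Mir30c-2 had 792 reads in replicate 1 and 1020 in replicate 2, or 161 and 229.7 CPM (mean 195 ± 48.8 CPM). Mir30b had 695 and 582 reads, or 141 and 131 CPM (mean 136 ± 7.03 CPM). Mir30c-1 had 493 and 615 reads, or 100.01 and 138 CPM (mean 119 ± 27.2 CPM). Mir30b was above Mir30c-1 in replicate 1 and below it in replicate 2, so their order is not fixed. Mir30c-2 was above Mir30b in both libraries, but their Poisson intervals overlapped in replicate 1. These genes ranked 171, 187 and 193. Per 100 bases of precursor the order of the 6 means was unchanged, from 9039 CPM at Mir30d to 134 CPM at Mir30c-1.

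By copy number, the 4 genes whose symbol carries no copy number (Mir30a, Mir30b, Mir30d and Mir30e, called single-copy here) summed to 18430 and 15348 CPM in replicates 1 and 2. The duplicated Mir30c-1 and Mir30c-2 together gave 261 and 368 CPM. The ratio was therefore 70.7 in replicate 1 (exact 95% interval 66.9 to 74.8) and 41.7 in replicate 2 (39.7 to 43.8), where the intervals hold counting error only. By the medians of the same genes, the ratio was 31.5 (mean of the libraries) in place of 56.2. The levels of single-copy and duplicated genes overlapped, since Mir30b was 1.08 times the mean of the duplicated genes in replicate 1 and 0.712 times in replicate 2. Mir30b had no entry in the sequence table, so other copies of its mature form were not looked for. The part of copy number in the levels was not tested. The counts of Mir30c-1 and Mir30c-2 hold only reads assigned to 1 of them, so the level of miR-30c-5p itself is not given by these data. How many of the reads mapping to several places belong to miR-30c was not tested. Mir30c-1 and Mir30c-2 kept nearly the same proportion in the libraries, 0.622 (0.555 to 0.697) and 0.603 (0.545 to 0.667).

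By locus, chromosome 15 held the most assigned family reads and chromosome 4 the fewest in each library. Reads that match both Mir30c-1 and Mir30c-2 may lie outside the shares of chromosomes 1 and 4. Whether they would change the order was not tested. The chromosome 15 pair held 40.4% of the family's reads in replicate 1 and 48.0% in replicate 2 (44.2 ± 5.34%, SD, n = 2). The chromosome 1 pair held 33.7% and 32.2% (33.0 ± 1.07%), and the chromosome 4 pair held 25.9% and 19.8% (22.8 ± 4.27%). Exact binomial 95% intervals within a library did not reach those of another locus, as at 25.6% to 26.2% for chromosome 4 against 33.4% to 34.0% for chromosome 1 in replicate 1. In CPM, the chromosome 15 pair stood at 7555 and 7541, and the chromosome 4 pair at 4835 and 3116.

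**Figure D2:**
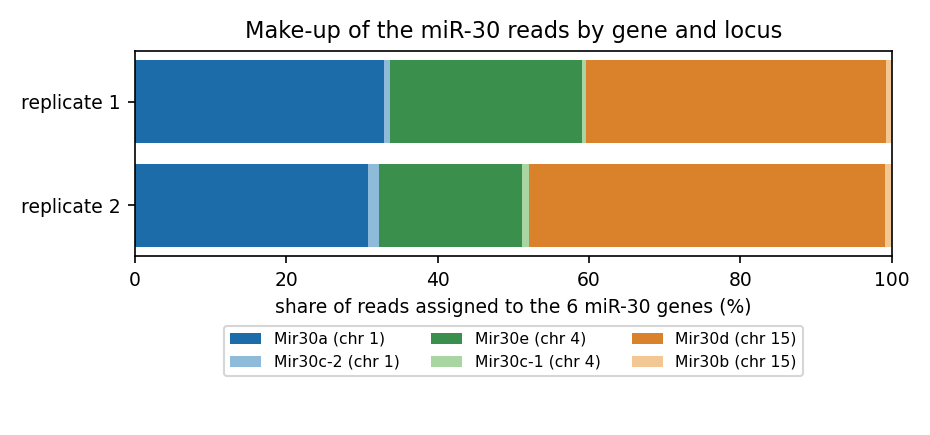
Share of the reads assigned to the 6 miR-30 genes (percent, horizontal axis) that each gene took in replicates 1 and 2, with a colour for each locus and a paler shade for its lower gene. Mir30d takes 39.7% and 47.1%, Mir30e takes 25.3% and 18.9%, and the paler segments are thin in both libraries.

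The annotation sets the loci apart (GENCODE M21, mm10, counted from 1). Mir30a lies at chromosome 1, 23272269 to 23272339 on the plus strand and overlaps no other annotated gene. Mir30c-2, at 23291701 to 23291784 on the same strand, lies within an exon of the long non-coding RNA gene Gm27028, and 19361 bases separate it from Mir30a. Mir30e (120772606 to 120772697) and Mir30c-1 (120769534 to 120769622) lie on the minus strand of chromosome 4 within introns of Nfyc, which encodes a subunit of the CCAAT-binding factor NF-Y, with 2983 bases between them. Mir30d (68341208 to 68341289) and Mir30b (68337415 to 68337510) lie on the minus strand of chromosome 15, 3697 bases apart. Mir30d lies within an exon of the long non-coding RNA gene Gm20732, and 16 bases of Mir30b overlap an exon of the non-coding Gm26621.

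Within each locus the partners were far apart in level. Mir30a was 38.2 times Mir30c-2 in replicate 1 (exact 95% interval 35.6 to 41.1) and 21.03 times in replicate 2 (19.7 to 22.4). Mir30e was 47.3 times Mir30c-1 in replicate 1 (43.3 to 51.9) and 21.5 times in replicate 2 (19.8 to 23.4). Mir30d was 52.6 times Mir30b in replicate 1 (48.8 to 56.8) and 56.5 times in replicate 2 (52.1 to 61.5). The intervals of the 2 libraries, which hold counting error only, overlapped on chromosome 15 and did not overlap on chromosomes 1 and 4. A partner is duplicated on chromosomes 1 and 4 only, and the part of copy number in this was not tested.

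To place these ratios, neighbouring detected genes lying within 50 kb on a common strand were paired, which gave 120 pairs with a median of 7.26-fold between partners (geometric mean of the libraries). The miR-30 pairs stood at 28.3-fold (Mir30a and Mir30c-2), 31.9-fold (Mir30e and Mir30c-1) and 54.5-fold (Mir30d and Mir30b). Of the 120 pairs, 27, 23 and 13 were wider than these, respectively, and 49 were at least 10-fold apart. Wide gaps between neighbours were therefore common in these counts and not particular to miR-30.

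**Figure D3:**
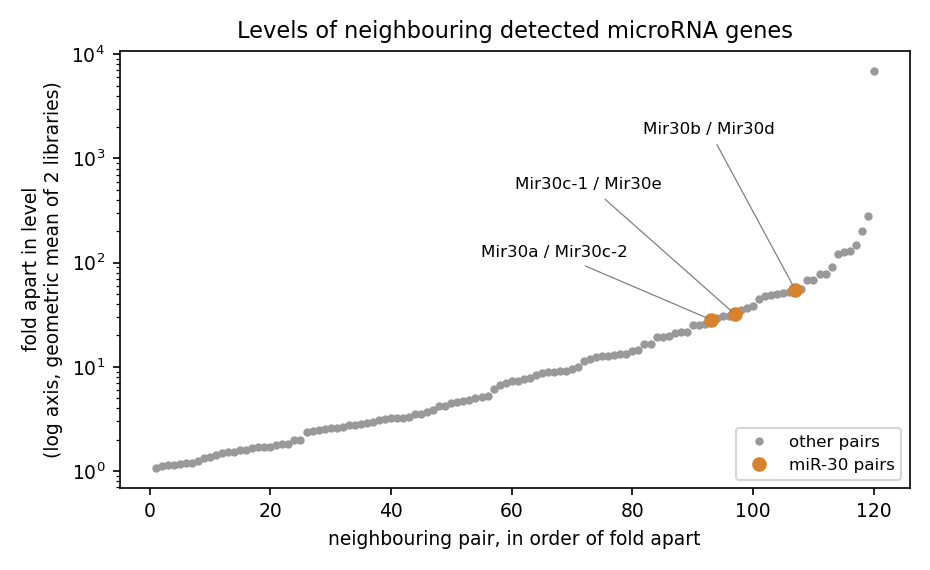
Fold apart in level (log axis, geometric mean of the 2 libraries) for the 120 pairs of neighbouring detected microRNA genes, ordered from the closest to the widest pair. The 3 miR-30 pairs, at 28.3-fold to 54.5-fold, lie in the upper part of the range but among many other pairs.

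The libraries differed at 4 of the 6 genes, in opposite directions within the loci on chromosomes 1 and 4. Each of the 417 detected genes was compared between the libraries by an exact binomial test (two-sided, conditional on the library sizes), and p-values were adjusted over all of them by the method of Benjamini and Hochberg. The test compares these libraries and not conditions, and it called 59.2% of all detected genes, so the members' share of calls is near that background. Mir30a was lower in replicate 2, with a log2 ratio of -0.35 (exact 95% interval -0.37 to -0.32, adjusted p = 4.24e-160, exact binomial test). Mir30e was lower by more, with a log2 ratio of -0.67 (-0.70 to -0.64) and an adjusted p below what the arithmetic could represent. Their duplicated partners were higher: the log2 ratio was 0.52 at Mir30c-2 (0.38 to 0.65, adjusted p = 1.26e-13, exact binomial test) and 0.47 at Mir30c-1 (0.30 to 0.64, adjusted p = 1.73e-07, exact binomial test). The chromosome 15 genes did not pass the threshold of 0.05, with log2 ratios of -0.00088 at Mir30d (-0.022 to 0.021) and -0.11 at Mir30b (-0.27 to 0.055).

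In these calls 2 members were higher and 2 lower in replicate 2, where 24.7% of all detected genes were called higher and 34.5% lower. No member was 2-fold apart, and 11.3% of all detected genes were called at least 2-fold apart. The median member was 1.33-fold apart between the libraries, and the median detected gene 1.29-fold. Under TMM scaling Mir30d also passed, as higher in replicate 2 with a log2 ratio of 0.047 (adjusted p = 4.48e-05, exact binomial test). The cell type lists also differed between the libraries, not always in a single direction within a list. Of the 10 neuronal genes detected, 1 was called higher in replicate 2 (Mir132), 7 lower and 2 were not called. The summed level of the red blood cell list was 587 and 58.5 CPM, that of the choroid plexus list 1748 and 814 CPM, and that of the oligodendrocyte list 3393 and 5622 CPM. Both red blood cell genes were called lower. Of the choroid plexus genes 1 was called higher and 3 lower, and of the oligodendrocyte genes 2 were called higher and 1 was not called. The vessel list was close in sum, at 20418 and 21812 CPM, with 2 genes called higher and 1 lower. All genes of these 4 lists were detected, and the highest were Mir451a (529 and 52.2 CPM), Mir204 (1084 and 553 CPM), Mir338 (2323 and 3117 CPM) and Mir126a (13131 and 14813 CPM). Mir486, also known from red blood cells but outside that list of Mir451a and Mir144, and named here after its values were seen, had 74 and 133 reads and was higher in replicate 2 (log2 ratio 1.00, adjusted p = 3.00e-06, exact binomial test). The part of these cell types in the differences at the miR-30 genes, and that of the reads mapping to several places, was not tested.

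**Figure D4:**
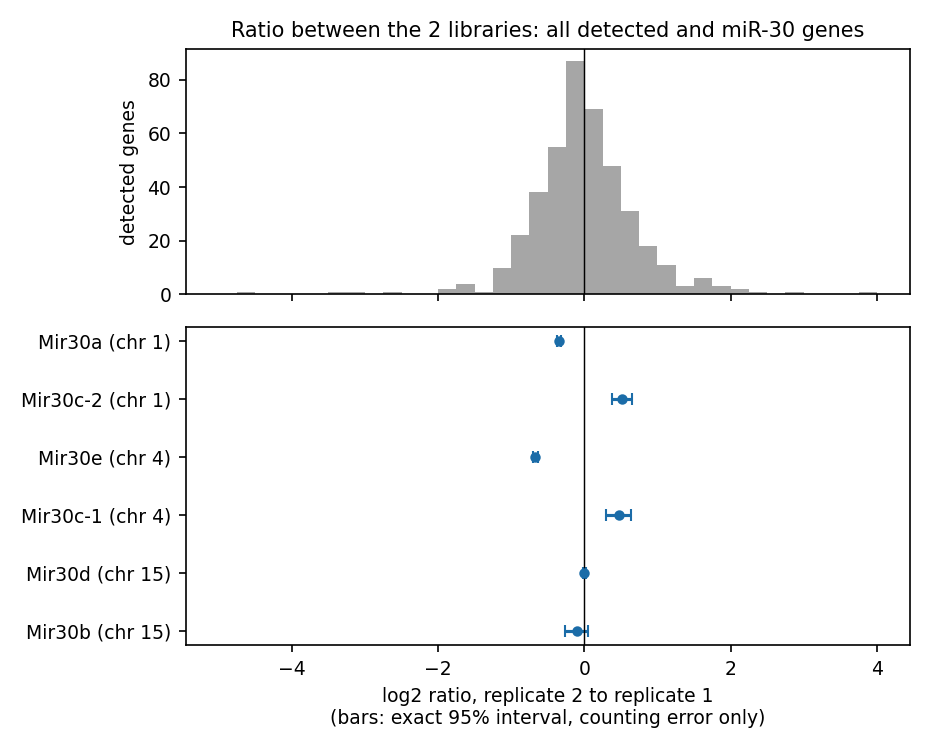
Upper panel, number of the 417 detected genes by log2 ratio of replicate 2 to replicate 1; lower panel, the same ratio for each miR-30 gene with its exact 95% interval, which covers counting error only. Mir30a (-0.35) and Mir30e (-0.67) lie left of 0, Mir30c-2 (0.52) and Mir30c-1 (0.47) right of it, and Mir30d and Mir30b at or near it.

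Across the annotation, 138 genes have a symbol with a copy number and at least 1 numbered sister gene. Of these, 47 (34.1%) were detected, against 17.9% of the other genes, and the median level of the detected genes was 114 CPM against 92.6 CPM. Of the 47, 14 were called higher and 20 lower in replicate 2, and their median log2 ratio was -0.15. Among the 370 other detected genes 89 were called higher and 124 lower, with a median of -0.04. Called higher were 29.8% of the duplicated genes against 24.1% of the others, and called lower 42.6% against 33.5%. Both miR-30c genes are among the 14 duplicated genes called higher. The part of duplication in the higher counts at both miR-30c genes was not tested.

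Other families with duplicated members gave similar and contrasting pictures. Mir30c-1 and Mir30c-2 took 1.39% of the miR-30 reads in replicate 1 and 2.34% in replicate 2. In the let-7 family, whose microRNAs promote differentiation, the 6 numbered genes of 12 took 2.28% and 2.31% of the reads. In the miR-29 family, which represses genes of the extracellular matrix, Mir29b-1 and Mir29b-2 took 0.683% and 0.987%. Mir26a-1 and Mir26a-2 took 0.451% and 3.72% of the miR-26 reads, a wider gap between the libraries than at miR-30. The miR-181 family differed, since its 4 numbered genes of 6 took 42.9% and 47.7% of its reads, led by Mir181b-2 at 1424 ± 298 CPM. These shares hold only reads assigned to a single gene, so reads that numbered genes share may lie outside them. They are descriptions, and no test of the difference between families was made. In the let-7, miR-29 and miR-26 families the lowest single-copy gene stood at 4081 (Mir98), 1528 (Mir29c) and 10324 CPM (Mir26b). In miR-181 it was Mir181d at 1252.5 CPM, and in miR-30 it was Mir30b at 136 CPM. In let-7 and miR-181, as in miR-30, the lowest single-copy gene was below the highest numbered gene. Those numbered genes stood at 4112 (Mirlet7f-2), 1424 (Mir181b-2) and 195 CPM (Mir30c-2).

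**Figure D5:**
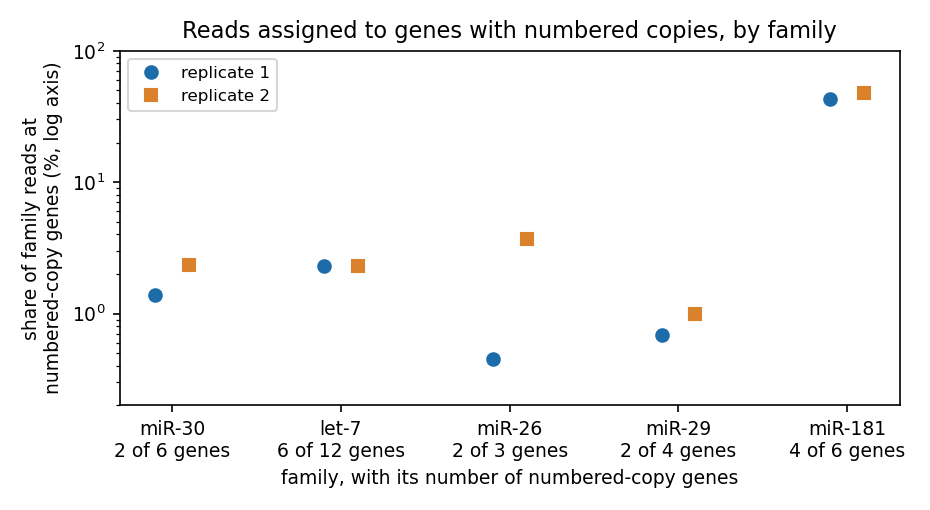
Share of each family's assigned reads at genes with numbered copies (percent, log axis) in replicate 1 (circles) and replicate 2 (squares), with the number of such genes under each family. Reads that numbered genes share may lie outside these shares. For miR-30 the shares are 1.39% and 2.34%, near those of let-7 and far below the 42.9% and 47.7% of miR-181.

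Mir384, the only gene outside the family found with the same seed among the sequences matched, lay below the 3 leading members. By its mean, Mir384 ranked 156 among all microRNA genes. It had 1360 and 1188 reads, or 276 and 267 CPM (mean 272 ± 5.94 CPM), and its log2 ratio of -0.04 (exact 95% interval -0.16 to 0.069) did not pass the threshold (adjusted p = 0.545, exact binomial test). It lay above Mir30b, Mir30c-1 and Mir30c-2 in both libraries by assigned reads. Reads that Mir30c-1 and Mir30c-2 share may lie outside their counts. Mir30f, which occupies the same bases as Mir30e on the opposite strand, had no sense read in either library, which allows up to 0.609 and 0.675 CPM in replicates 1 and 2 (3 reads, for counting error only). Its annotated mature form, shown with bases 2 to 8 in capitals, carries the letters of the miR-30 seed shifted by a base, from base 1 to base 7.
miR-30f: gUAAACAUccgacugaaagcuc

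By level over both libraries, the detected gene outside the family nearest to each member was taken from the smallest Euclidean distance of log2(CPM + 1) over the 2 libraries. It was Mir143 for Mir30d (distance 0.16), Mir92b for Mir30a (0.16) and Mir598 for Mir30e (0.24). For the lower genes it was Mir495 for Mir30b (0.088), Mir873a for Mir30c-2 (0.19) and Mir410 for Mir30c-1 (0.23). With 2 libraries this likeness describes the level and the direction of 1 difference only.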

How the data were processed

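The deposited tables hold raw read counts per microRNA gene, not normalised, made against mm10 and GENCODE M21 per the notes deposited by the authors. The aligner and the counting tool: not given in the sources used here. Each table has an unstranded, a sense and an antisense column and 4 lines of unassigned totals. That reading of the columns is inferred from the format, which STAR also writes. Sense counts were used, since Mir30e overlaps Mir30f on the other strand, and unassigned reads, 69.9% and 73.9% of each library, stayed out of library sizes. A single read weighs 0.203 and 0.225 CPM in replicates 1 and 2. All 2202 identifiers were found in GENCODE M21, and 1032 symbols matched the RefSeq sequence table. Reads carry no molecular identifiers used here, so intervals cover counting error only, and strain differences from mm10 were not measured.

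Members are the 6 genes by symbol. Also named are genes sharing the seed, the nearest gene in level to each member, totals of 4 comparison families and 8 marker lists, and the highest gene of some lists. Members and lists were chosen with earlier results of these data known. Tests used scipy 1.17.1, and edgeR 4.0.16 and DESeq2 1.42.0 (R 4.3.3) gave scaling factors only. Alternatives were counts without regard to strand, TMM and DESeq2 scaling, other denominators, other count minimums (none, or 50) and leaving out each library.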

Additional observations from a re-analysis of the deposited data

Results flagged for a closer look

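The antisense column, which no comparison used, held 23341 reads at Mir30f in replicate 1 and 13226 in replicate 2, against the limit of 3 reads that a count of 0 allows. These are the numbers counted at Mir30e on the sense strand, since the genes occupy the same bases on opposite strands. None of the 6 miR-30 genes examined had an antisense read.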

How the results depend on the processing

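Of 93 alternative values, 74 kept their direction and side of the threshold or moved by less than the SD of the libraries. Leaving out a library always moves the mean by less than that SD. Those alternatives were therefore bound to be among the 74 and are no check of the results. Counted without regard to strand, reads at Mir30e became ambiguous and its count was 0, which took the family share to 1.44%, the shares of chromosomes 1, 4 and 15 to 42.4%, 0.902% and 56.7%, and the ratio of Mir30e to Mir30c-1 to 0. Of all reads the family took 0.486%, and with medians for sums the single-copy to duplicated ratio was 31.5. The log2 ratio of Mir30d, -0.00088, turned to 0.00051 without regard to strand, 0.047 with TMM and 0.020 with DESeq2 size factors, and passed the threshold with TMM only. The other 9 values that moved are levels of single genes. Leaving out a library gave 1.57% to 1.87% for the family share, 32.2% to 33.7%, 19.8% to 25.9% and 40.4% to 48.0% for the loci on chromosomes 1, 4 and 15, and 41.7 to 70.7 for the single-copy to duplicated ratio. With TMM 5 members differed (3 higher, 2 lower), and 247 of 417 genes, of which 116 were higher, against 103 of 247 in the main scaling. No paired analysis was possible because there is 1 group. At Mir30b, with 695 and 582 reads, the exact interval of the log2 ratio between the libraries was -0.27 to 0.055. Ratios within that interval, which covers counting error only, were not excluded by these counts. The smallest difference detectable at this depth was not tested.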
